A study of Mus musculus with 12 samples.

Results

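The SWI/SNF complex subunit genes are a set of 10 named genes: Smarce1, Smarca2, Smarca4, Smarcb1, Smarcc1, Smarcc2, Smarcd1, Smarcd2, Arid1a and Arid1b. Probe sets annotated to these genes were taken from the deposited table, and 9 of the 10 had one; no probe set was annotated to Arid1a, so its expression was not analysed here and it appears in the promoter search alone. These 9 stand among 19494 named genes, each with 1 probe set. The set was put together because Smarce1 read lower in NFAT5-deficient hematopoietic stem cells, so the values of that comparison chose it, and they are given below as a description without a test.

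SWI/SNF complexes use the energy of ATP to slide and evict nucleosomes, which opens enhancers and promoters to transcription factors. Each complex holds 1 of 2 exclusive ATPases, encoded by Smarca2 (BRM) and Smarca4 (BRG1). In the canonical BAF form the core includes SMARCB1, SMARCC and SMARCD subunits and the HMG-box protein SMARCE1 (BAF57), but not every form holds all of these. The ARID1 proteins define this canonical form of the complex. In blood formation, the complexes are known for roles in stem cell maintenance and in lineage choice.

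The study profiled sorted mouse bone marrow cells on 12 single-colour arrays, 4 groups of 3. Donors called wild-type here were Nfat5 +/+ with Vav-Cre, those called NFAT5-deficient were Nfat5 fl/fl with the same Vav-Cre transgene, so every donor carried Vav-Cre, which is active across blood cells. Their CD45.2 marrow was placed into irradiated wild-type CD45.1 recipients, and 13 weeks later CD45.2+ cells were sorted from the LSK fraction, which lacks lineage markers and carries Sca-1 and Kit, as hematopoietic stem cells (HSC, CD48-CD150+) and multipotent progenitors (MPP, CD48+CD150-). Arrays are named by the number in their title. Wild-type arrays are 66, 67 and 75, NFAT5-deficient ones are 64, 70 and 76, each number once per population; ages and pooling are not given in the labels. The labels do not say that arrays of a group came from separate animals, so p-values measure the spread between arrays, which may be technical.

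All values are log2 intensities, on which a difference of 1 is a doubling. The arrays correlated within groups at 0.898 to 0.952 across genes, and no pair of arrays held identical values. Wild-type HSC array 66 and NFAT5-deficient HSC array 70 had the most extreme scores on principal component 2 (58.1 and -42.8). The gate markers separated the populations: Slamf1 (CD150) averaged 9.84 and 10.08 in HSC against 6.26 and 6.46 in MPP, and Cd48 averaged 6.48 and 6.50 against 9.92 and 10.28. Nfat5, the targeted gene, averaged 9.49 ± 0.29 and 8.24 ± 0.58 in HSC of wild-type and of deleted donors, and 8.58 ± 0.41 and 7.92 ± 0.42 in their MPP (SD, n = 3 each), with overlapping arrays in MPP. The lowest single value of the 9 members was 5.64, for Smarcd1; levels of different probe sets have no common scale, so this does not rank the genes.

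The promoters of the ATPase genes Smarca2 and Smarca4 are shown because the HSC minus MPP values of these paralogues had opposite signs, although neither passed the test over all genes (limma adjusted p = 0.061 and 0.342). Each stretch runs, 5′ to 3′, to the base before the outermost RefSeq start of its gene (GRCm38.p6, plus strand): chr19:26604910-26605072 for Smarca2 and chr9:21615919-21616105 for Smarca4.
Smarca2: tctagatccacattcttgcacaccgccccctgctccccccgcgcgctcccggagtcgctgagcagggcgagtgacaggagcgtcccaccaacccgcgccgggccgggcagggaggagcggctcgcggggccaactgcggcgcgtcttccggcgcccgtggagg
Smarca4: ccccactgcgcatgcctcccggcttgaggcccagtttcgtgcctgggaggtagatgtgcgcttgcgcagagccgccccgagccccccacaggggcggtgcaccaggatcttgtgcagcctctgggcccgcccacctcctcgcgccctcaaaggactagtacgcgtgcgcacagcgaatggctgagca
Capitals were reserved for TGGAAA, the core of the sequence that NFAT5 recognises, on either strand, and neither stretch holds it. The windows of 250 bases before each listed start were searched the same way for the 9 members in the RefSeq promoter table (Smarce1 has no entry). TGGAAA was found in windows of 2 of them, Smarcd2 and 1 of the 2 Arid1a starts, and in 18.6% of all 32851 windows. CpG pairs numbered 21 and 15 in the stretches of Smarca2 and Smarca4 shown. The windows of these 2 genes run past the outermost RefSeq start, to 26605159 and 21616168, and hold 28 and 25. The median was 6 over all windows, and the window of Smarcd2 held 4. A match of letters is a description and shows no binding.

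Smarce1, the HMG-box subunit, had the largest genotype difference of the 9 members in HSC and a difference near 0 in MPP. In wild-type HSC it read 10.09, 10.79 and 10.19 on arrays 66, 67 and 75. In NFAT5-deficient HSC it read 9.40, 9.26 and 8.87 on arrays 64, 70 and 76. Every NFAT5-deficient HSC array lay below every wild-type one, and array 67 was the highest. The group means were 10.36 ± 0.38 and 9.18 ± 0.28 (SD, n = 3 each), which is -1.18 apart and leaves 44.1% of the level in wild-type HSC. These are the values that chose the set. In these bulk samples, fewer cells with the transcript and less transcript per cell cannot be told apart.

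In MPP, which the choice did not use, Smarce1 was nearly level between genotypes. It read 9.29, 9.90 and 9.80 on wild-type arrays 66, 67 and 75, and 9.86, 9.81 and 9.57 on NFAT5-deficient arrays 64, 70 and 76. The 3 NFAT5-deficient values lay inside the wild-type range. The difference was 0.08 (SE 0.25, 95% interval -0.48 to 0.64, limma adjusted p = 0.976), and an exact two-sided permutation test over the 6 arrays gave p = 0.8. The genotype difference in HSC minus that in MPP was -1.26, a value that contains the comparison behind the choice and is given without a test.

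Ordered by group mean, Smarce1 was highest in wild-type HSC (10.36), followed by NFAT5-deficient MPP (9.75), wild-type MPP (9.66) and NFAT5-deficient HSC (9.18). Wild-type HSC lay above all other arrays. The MPP groups overlapped, as did wild-type MPP and NFAT5-deficient HSC, where MPP array 66 read 9.29 and HSC array 64 read 9.40. HSC minus MPP was thus 0.69 for Smarce1 among wild-type arrays and -0.57 among NFAT5-deficient arrays. Averaged over genotypes, a measure that the choice does not favour, HSC and MPP differed by 0.06 (SE 0.18, 95% interval -0.34 to 0.46, limma adjusted p = 0.913).

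Transcripts of mature neutrophils varied between arrays in both populations. The mean of 9 mature neutrophil genes was 6.88 on array 66 of wild-type HSC, 7.38 on array 67 and 5.52 on array 75. It was 5.42 to 5.53 on the NFAT5-deficient HSC arrays. In NFAT5-deficient HSC 8 of the 9 genes were lower, as were 11377 of all 19494 genes. None of the 9 passed the test there, nor did any gene. In MPP the same mean was 6.94, 7.02 and 5.96 on wild-type arrays 66, 67 and 75, and 6.02 to 6.62 on the NFAT5-deficient arrays. There, too, 8 of the 9 genes were lower with NFAT5 deficiency, as were 11911 of all genes. The part of these transcripts in the Smarce1 values was not tested. Without HSC arrays 66 and 70, which stand apart, the Smarce1 difference in HSC was -1.36, and with single arrays left out it ran from -1.31 to -0.96.

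**Figure D1:**
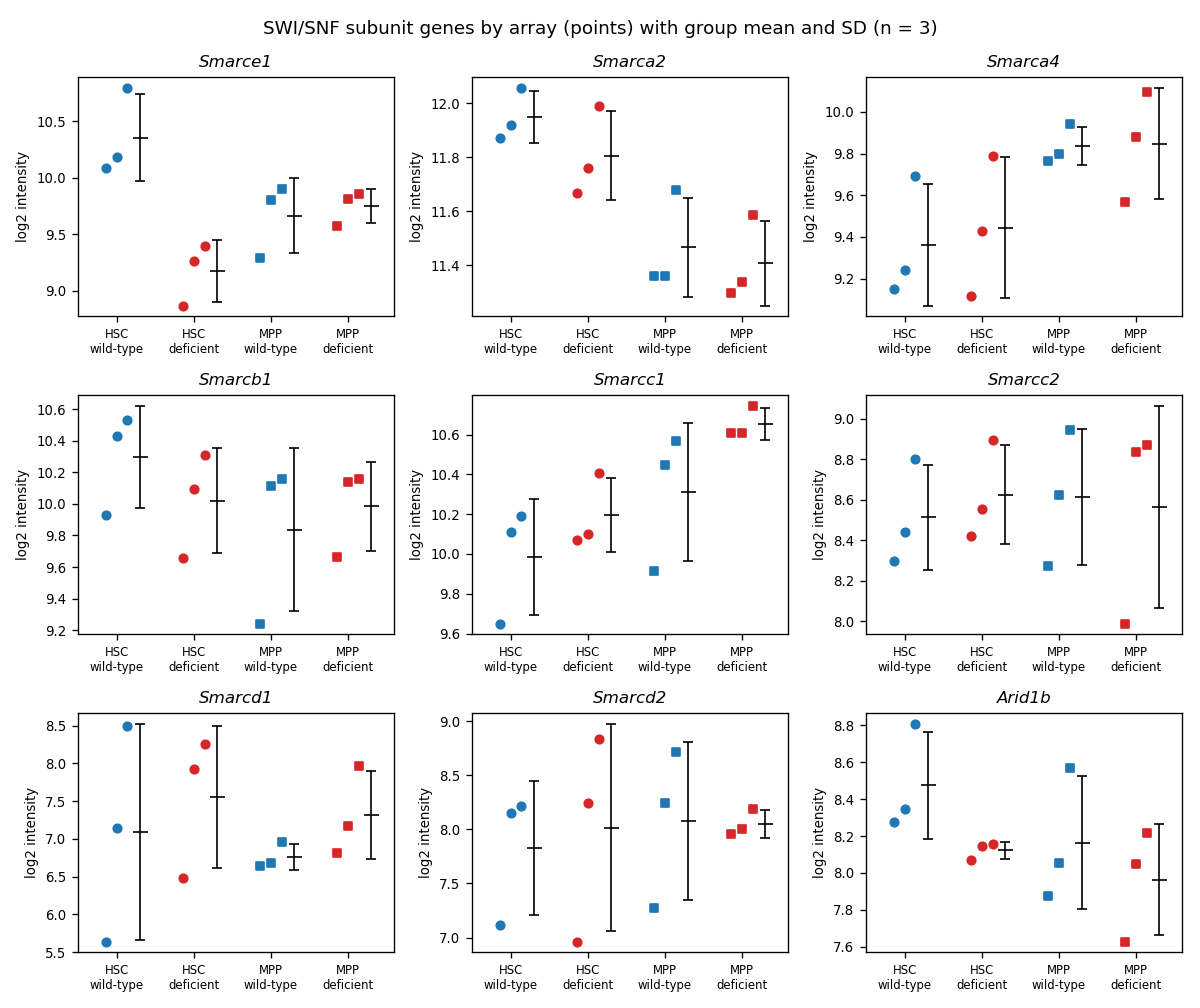
Log2 intensity (y axis of each panel) of 9 SWI/SNF subunit genes in the 4 groups (x axis): points are arrays, with the group mean and SD (n = 3) beside them in black. In HSC, Smarce1 spans 10.09 to 10.79 with Nfat5 intact and 8.87 to 9.40 with it deleted, and Smarca2 is higher in HSC than in MPP in each genotype.

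In HSC the other 8 members were nearer to each other between genotypes. Arid1b, the DNA-binding subunit of a BAF form, read 8.81, 8.28 and 8.34 in wild-type HSC and 8.16, 8.07 and 8.15 in NFAT5-deficient HSC. Its groups did not overlap either, with a difference of -0.35, whereas the arrays of the remaining 7 members overlapped. Without wild-type array 66 the Arid1b difference was -0.19, and without arrays 66 and 70 it was -0.16. The differences of the ATPase genes were -0.14 for Smarca2 and 0.08 for Smarca4. Those of the core genes were -0.28 for Smarcb1, 0.21 for Smarcc1, 0.11 for Smarcc2, 0.46 for Smarcd1 and 0.19 for Smarcd2. Over the 9 members the median was 0.08, with 5 higher and 4 lower, against a median of -0.05 over all genes. limma called 0 of the 9 members in HSC; over all genes percent called was 0, with 1205 genes (6.18%) at an unadjusted p under 0.05. Groups did not overlap for 2 of 9 members, both lower. Of all genes, 6.61% were lower without overlap, a share that leaves out those higher without overlap. The choice of Smarce1 used this comparison, and nothing is read from these counts.

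Smarcd1, which links the core to transcription factors, had the widest spread of the members among wild-type HSC arrays. In wild-type HSC it read 8.50, 5.64 and 7.14, and in NFAT5-deficient HSC 7.93, 6.48 and 8.26. Its SD was 1.43 and 0.94 in HSC, against 0.17 and 0.59 in MPP. Without HSC arrays 66 and 70 its genotype difference in HSC was 1.70 in place of 0.46, so this value rested on those arrays. In the same fit 4 of the 9 members changed sign: Smarcd2 turned to -0.58, Smarca4 to -0.15, Smarcc1 to -0.06 and Smarcc2 to -0.06. Smarcb1 went from -0.28 to -0.60 and Smarca2 from -0.14 to -0.27.

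Among the remaining core genes, Smarcb1 read 9.93, 10.53 and 10.43 in wild-type HSC against 10.10, 10.31 and 9.66 with Nfat5 deleted. Smarcc2 read 8.44, 8.80 and 8.30 against 8.42, 8.89 and 8.56. Smarcd2 read 7.11, 8.22 and 8.15 against 8.25, 8.83 and 6.96, with array 66 low in the first group and array 76 low in the second. In each of these genes the genotypes overlapped.

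In MPP no member passed the test for the genotype (0 of 9, limma; lowest adjusted p 0.899), where 0.00513% of all genes were called, that is 1 gene, Ms4a4c, which was lower. By unadjusted p under 0.05 it was 0 of 9 members against 5.35% of all genes. The median difference of the members was 0.01, with 5 higher and 4 lower, against -0.07 over all genes. The smallest unadjusted p of the members was that of Smarcc1, which encodes a scaffold of the core. It read 9.92, 10.45 and 10.57 in wild-type MPP and 10.61, 10.61 and 10.74 in NFAT5-deficient MPP. The NFAT5-deficient arrays lay above the wild-type ones, with a difference of 0.34 (SE 0.21, 95% interval -0.12 to 0.81, limma adjusted p = 0.899) and an exact permutation p of 0.1, as low as groups of 3 can reach. Without wild-type MPP array 66, the lowest, the difference was 0.14. Smarcc1 was the 1 member of 9 whose groups did not overlap, with NFAT5-deficient arrays higher. Of all genes, 3.8% were higher without overlap. Genes lower without overlap are not in that share, so it understates the share separated in either direction.

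Smarcd1 read 6.68, 6.64 and 6.96 in wild-type MPP and 6.82, 7.17 and 7.96 in NFAT5-deficient MPP, where array 76 was highest and array 64 lay inside the wild-type range. Arid1b read 8.57, 8.05 and 7.87 against 8.05, 8.22 and 7.63, so the separation it had in HSC was not present here. Smarcb1 read 10.16, 10.11 and 9.24 against 9.66, 10.14 and 10.16, with wild-type array 75 the lowest. Those 3 genes overlapped between genotypes, as did Smarcc2 (7.99 to 8.94) and Smarcd2 (7.28 to 8.71) over the 6 MPP arrays.

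The remaining differences in MPP were small beside their intervals. The ATPase genes differed by -0.06 for Smarca2 (95% interval -0.33 to 0.22) and 0.01 for Smarca4 (-0.51 to 0.54). Smarcb1, a core subunit gene known as a tumour suppressor, differed by 0.15 (-0.50 to 0.80), and Arid1b by -0.20 (-0.78 to 0.38). Smarcc2, the paralogue of Smarcc1, differed by -0.05 (-0.72 to 0.62). For Smarcd1 (0.56, -0.90 to 2.01) and Smarcd2 (-0.03, -1.16 to 1.10) the intervals are wide and reach a log2 difference of 1 in at least one direction, so a doubling was not resolved by these arrays. For Smarca2 the interval is narrow, and a change above 0.33 in either direction lies outside it.

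**Figure D2:**
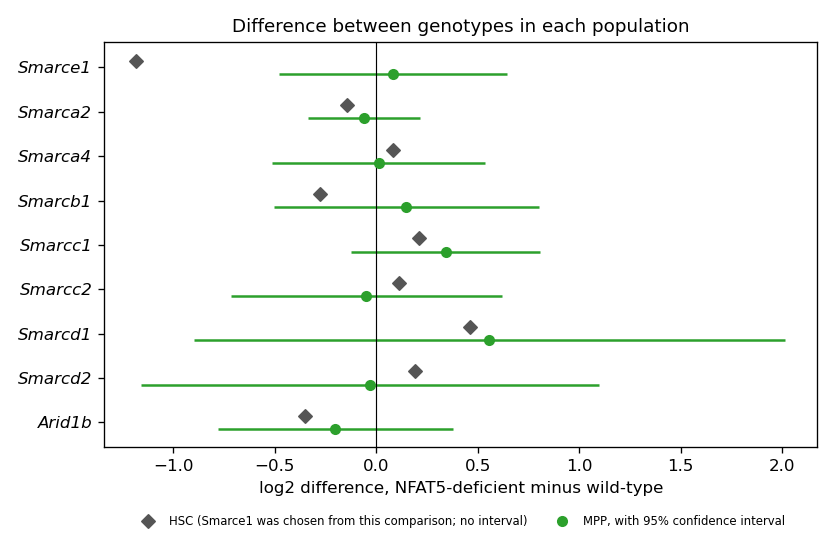
Log2 difference (x axis), NFAT5-deficient minus wild-type, for 9 members (y axis): diamonds are HSC, shown without an interval because Smarce1 was chosen from that comparison, and circles are MPP with limma's 95% interval (3 arrays per group). Smarce1 is at -1.18 in HSC and 0.08 in MPP, and every MPP interval includes 0.

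Between the populations, the ATPase genes differed in opposite directions. Smarca2 was 0.44 higher in HSC than in MPP, averaged over genotypes (1.36-fold, SE 0.09, 95% interval 0.25 to 0.64), and Smarca4 was lower by a log2 value of -0.44 (SE 0.17, 95% interval -0.81 to -0.07). The scaffold gene Smarcc1 also had a lower value in HSC (-0.39, SE 0.15, 95% interval -0.72 to -0.06). None of these passed the test over all genes: the limma adjusted p was 0.061 for Smarca2, 0.342 for Smarca4 and 0.336 for Smarcc1. In all, 0 of 9 members were called, where percent called over all genes was 0.61. At an unadjusted p under 0.05 it was 3 of 9 members against 12.2% of all genes.

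Smarca2 read 11.87, 12.06 and 11.92 in wild-type HSC and 11.36, 11.36 and 11.68 in wild-type MPP. In NFAT5-deficient cells it read 11.76, 11.99 and 11.67 in HSC and 11.58, 11.34 and 11.30 in MPP. Within each genotype all HSC arrays lay above all MPP arrays; across genotypes, NFAT5-deficient HSC array 76 fell just below wild-type MPP array 75. The differences were 0.48 (wild-type) and 0.40 (NFAT5-deficient). An exact two-sided permutation of the population labels within genotypes gave p = 0.005, the smallest that its 400 arrangements allow, in a family of 9 members tested this way. For every member, this permutation took arrays that share a title number as unpaired, which the labels do not settle. Smarca2 was the 1 member of 9 that was separated the same way in both genotypes, with HSC higher. Of all genes, 1.49% were separated with HSC higher in both genotypes. Genes with HSC lower in both are not in that share, so it understates the share separated in either direction. The limma adjusted p of Smarca2 depended on single settings. It was 0.0397 with dim genes left out, 0.0252 after quantile normalization and 0.0431 without wild-type MPP array 75. Over the other settings it ran from 0.0605 to 0.181.

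Smarca4 read 9.24, 9.15 and 9.69 in wild-type HSC and 9.94, 9.80 and 9.77 in wild-type MPP, without overlap. In NFAT5-deficient cells it read 9.12, 9.79 and 9.43 in HSC and 10.10, 9.88 and 9.57 in MPP, where HSC array 70 reached into the MPP range. The differences were -0.47 and -0.40, and the exact permutation p over both genotypes was 0.02. Smarcc1 read 9.65, 10.11 and 10.19 in wild-type HSC and 10.10, 10.41 and 10.07 in NFAT5-deficient HSC, below the MPP values given above in NFAT5-deficient cells and overlapping them in wild-type. Its differences were -0.33 and -0.46, with an exact permutation p of 0.025. Groups of Smarca4 and Smarcc1 were thus separated in 1 genotype each. Without HSC arrays 66 and 70 the averaged differences were 0.41 for Smarca2 (limma adjusted p = 0.151), -0.49 for Smarca4 and -0.36 for Smarcc1.

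For the other members the 95% interval of the averaged population difference included 0. It was 0.25 for Smarcb1 (95% interval -0.21 to 0.71), 0.24 for Arid1b (-0.17 to 0.65) and -0.02 for Smarcc2 (-0.49 to 0.45). It was 0.29 for Smarcd1 (-0.74 to 1.32) and -0.14 for Smarcd2 (-0.94 to 0.66), whose intervals reach a doubling or nearly so. The median of the 9 members was 0.06, the same to 2 decimals as the median of all genes, 0.06. Within wild-type cells limma called 0 of 9 members (percent called over all genes 0.164), with 2 at an unadjusted p under 0.05 where 8.9% of all genes were. Within NFAT5-deficient cells it called 0 of 9 (percent called 0.21), with 2 at an unadjusted p under 0.05 where 7.9% of all genes were. Populations did not overlap for 3 members among wild-type arrays (Smarce1, Smarca2 and Smarca4; 12.3% of all genes) and for 3 among NFAT5-deficient arrays (Smarca2, Smarce1 and Smarcc1; 16.9% of all genes). In each genotype both the count by unadjusted p and the count without overlap include Smarce1, whose HSC values chose the set, so nothing is read from them.

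**Figure D3:**
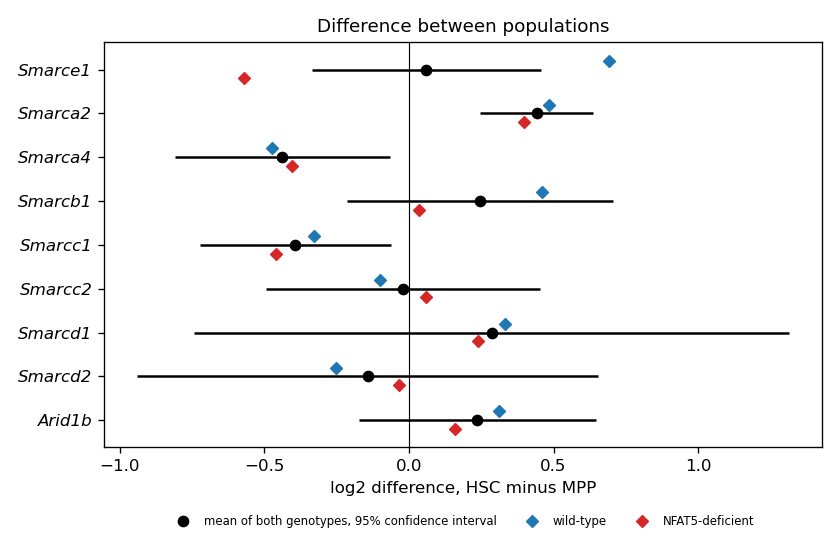
Log2 difference (x axis), HSC minus MPP, for 9 members (y axis): black circles are the mean over genotypes with limma's 95% interval over 12 arrays, and diamonds are wild-type (blue) and NFAT5-deficient (red) cells. The intervals of Smarca2 (0.25 to 0.64), Smarca4 (-0.81 to -0.07) and Smarcc1 (-0.72 to -0.06) do not include 0, and Smarce1 has diamonds on either side of 0.

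The difference between paralogues within an array was computed for the 3 pairs with both members measured, after the single values had been seen, and is given without a test. Smarca2 minus Smarca4 ran from 2.20 to 2.90 on the 6 HSC arrays and from 1.42 to 1.91 on the 6 MPP arrays, without overlap. Its group means were 2.59 ± 0.34 in wild-type HSC, 2.36 ± 0.25 in NFAT5-deficient HSC, 1.63 ± 0.26 in wild-type MPP and 1.56 ± 0.15 in NFAT5-deficient MPP (SD, n = 3). The HSC minus MPP shift was 0.96 (wild-type) and 0.80 (NFAT5-deficient), whereas the genotypes differed by -0.23 in HSC and -0.07 in MPP. These values compare shifts between groups; they do not compare the abundance of the 2 transcripts, since each probe set has its own scale.

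For the scaffold pair, Smarcc1 minus Smarcc2 ran from 1.21 to 1.89 in HSC and from 1.63 to 2.62 in MPP, with overlap. For the linker pair, Smarcd1 minus Smarcd2 ran from -2.58 to 1.39 in HSC and from -2.07 to -0.23 in MPP. The separation of the ATPase pair restates the opposite signs of Smarca2 and Smarca4 and is no further evidence of a difference; how many gene pairs separate this way over all genes was not counted.

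**Figure D4:**
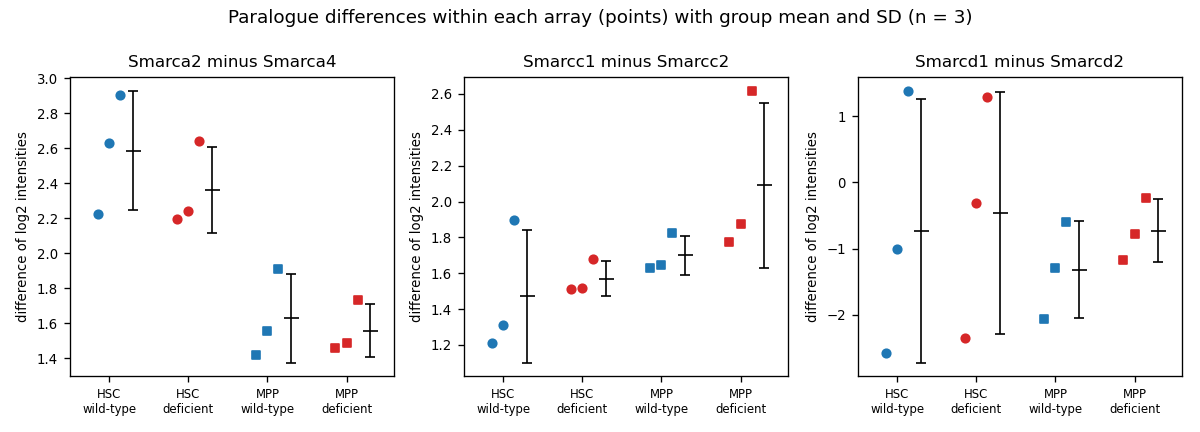
Difference of log2 intensities (y axis) between 3 pairs of paralogues on each array, by group (x axis): points are arrays, with the group mean and SD (n = 3) in black. Smarca2 minus Smarca4 lies between 2.20 and 2.90 on HSC arrays and between 1.42 and 1.91 on MPP arrays, and the other pairs overlap between populations.

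Marker lists of other cell types were read on the same arrays. The mean of 4 megakaryocyte and platelet genes was 8.34 to 8.89 in HSC and 7.37 to 7.93 in MPP, and that of 4 macrophage and monocyte genes was 6.45 to 6.83 in HSC and 6.75 to 7.54 in MPP. The mean of 4 erythroid genes was 6.38 to 6.65 in HSC and 6.73 to 7.39 in MPP. Of these 4, Car1 had the widest gap (5.36 and 5.44 in HSC, 7.44 and 8.07 in MPP), and 2 were higher in HSC. Of the macrophage and monocyte genes, Ly6c2 had the widest gap (5.32 and 5.42 against 7.51 and 7.60). In that list 3 genes were lower in HSC and 1 was higher. These 2 means thus do not describe each gene of their lists. The mean of 4 B cell genes (5.82 to 6.30 and 6.17 to 6.41) and that of 5 T and NK cell genes (5.43 to 5.84 and 5.76 to 6.05) overlapped between HSC and MPP. Of the T and NK cell genes, Nkg7 had the widest gap (8.30 and 8.35 in HSC, 10.01 and 10.10 in MPP). In that list 2 genes were lower in HSC and 3 were higher, so its mean does not describe each gene either. The part of these differences in the values of Smarca2, Smarca4 and Smarcc1 was not tested.

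Around their group means, the members did not vary as a block. Deviations from the group mean were set against each other for the 36 pairs of members over 12 arrays, which share arrays and normalization. Pearson's r ran from -0.86 to 0.81 with a median of 0.08, and 20 pairs were positive. The lowest was Smarcc1 with Arid1b (r = -0.86, Spearman's rho = -0.77, r = -0.68 without the 2 arrays most extreme for Smarcc1). The highest was Smarcc1 with Smarcd2 (r = 0.81, rho = 0.79, and 0.69 without the same 2 arrays). In HSC and in MPP alike, wild-type array 66 read lowest of its group for Smarcc1 and Smarcd2 and highest for Arid1b. Smarce1 varied with Smarcd2 at r = 0.74 (rho = 0.75, and r = 0.53 without the 2 arrays most extreme for Smarce1). Arrays extreme for the second gene of a pair were not left out on that account.

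Likeness to Smarce1 over the 12 arrays was ranked among 7595 genes with a mean of at least 7. Gene models with placeholder symbols, such as Gm numbers and Rik names, were left out. The most alike were Dhx33 (Pearson's r = 0.90, Spearman's rho = 0.87), Strn3 (0.87, 0.79), Ptp4a3 (0.85, 0.64), Akirin2 (0.83, 0.68) and Tmpo (0.83, 0.66). Around the group means r was 0.84, 0.71, 0.77, 0.74 and 0.67. These genes also read lower in NFAT5-deficient HSC, by a log2 value of -1.89 for Dhx33, -0.72 for Strn3, -1.24 for Ptp4a3, -1.10 for Akirin2 and -0.70 for Tmpo. The HSC arrays were among those by which these genes were picked, so their HSC differences are partly set by that choice. Over the 6 MPP arrays alone r was 0.86 for Dhx33 and 0.75 for Akirin2, and 0.43, 0.12 and 0.35 for Strn3, Ptp4a3 and Tmpo. Both r around the group means and r over the MPP arrays use arrays by which these genes were picked. They are therefore partly set by that choice and are no separate evidence of likeness.

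The 21 other SWI/SNF genes, which include subunits of the PBAF and non-canonical forms, showed no call in any of these comparisons. In MPP, 8 were higher and 13 lower in NFAT5-deficient cells (median -0.15, lowest limma adjusted p 0.899), where 7583 of all 19494 genes were higher. At an unadjusted p under 0.05 it was 0 of 21 against 5.35% of all genes. The smallest p of these 21 genes were those of Phf10, a PBAF subunit gene (0.39, SE 0.25), and Ss18l1 (-0.21, SE 0.14). Between populations, 11 were higher and 10 lower in HSC (median 0.01), with 2 at an unadjusted p under 0.05, where 12.2% of all genes were, so the count does not stand out. The 2 genes are those with the smallest p. Brd9, which encodes a bromodomain subunit of the non-canonical complex, differed by -0.97 (SE 0.34, limma adjusted p = 0.308) and Dpf3, a PHD finger subunit gene, by 0.45 (SE 0.18, limma adjusted p = 0.354).

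The other families of ATP-dependent remodellers gave 0 calls in the MPP genotype comparison and in the averaged population comparison as well. Of all genes, 0.00513% and 0.61% were called there. In MPP the median genotype difference was 0.12 over 11 ISWI genes (9 higher), 0.09 over 18 CHD and NuRD genes (11 higher) and 0.01 over 18 INO80 family genes (9 higher). Over all genes it was -0.07, with 7583 of 19494 higher. The smallest p belonged to Smarca5 (0.23) and Rsf1 (-0.33) among ISWI genes, Mta3 (0.71) and Chd9 (-0.62) among CHD and NuRD genes, and Tfpt (-0.72) and Vps72 (-1.08) in the INO80 family. At an unadjusted p under 0.05 there was 1 of these genes in MPP, Tfpt, where 5.35% of all genes were. Between populations the medians were -0.11, -0.01 and -0.12, with 1 of 11, 4 of 18 and 2 of 18 genes at an unadjusted p under 0.05, where 12.2% of all genes were. Ruvbl2, which encodes an AAA+ ATPase shared by INO80-type complexes, had the smallest p of these lists (-0.55, SE 0.15, limma adjusted p = 0.183), and Mcrs1 differed by 0.40. Bptf (-0.47) and Baz1a (-0.92), subunit genes of ISWI complexes, and Hdac2 (-0.25) had lower values in HSC, and Mbd3 (0.34) a higher one. Against these, the adjusted p of Smarca2, 0.061, was the lowest among the remodeller genes in these 2 comparisons.

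**Figure D5:**
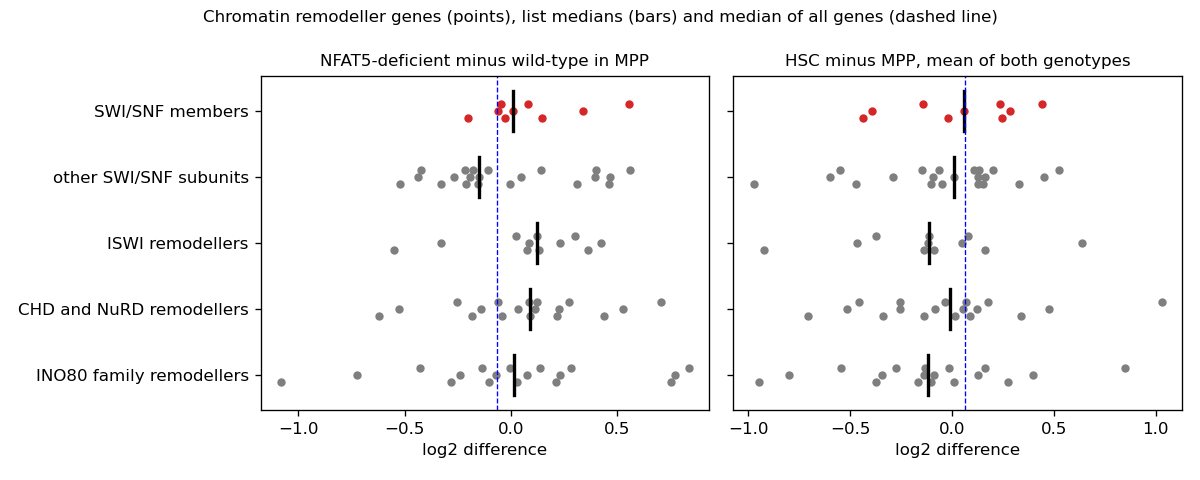
Log2 differences (x axis) of single genes (points) in 5 lists of chromatin remodeller genes (y axis), for the MPP genotype comparison and for HSC minus MPP averaged over genotypes; bars are list medians and the dashed line is the median of all 19494 genes. List medians lie between -0.15 and 0.12 in the left panel and between -0.12 and 0.06 in the right panel.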

How the data were processed

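Per the submitters' processing notes the tools were RMA and limma, with no version or role given; the authors deposited 1 table of log2 intensities for 22142 probe sets on 12 arrays, made from 300 pg of total RNA per sample per the labels' protocols. The log2 scale was read from the values (2.51 to 13.28). The platform annotation gave 19527 probe sets 1 gene symbol and 0 several; 2615 unnamed ones were left out, and the brightest probe set stood for each of 33 genes with more than 1. The genome build of the probe sets is not stated in any source used.

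A mean per group was fitted with limma 3.58.1 (R 4.3.3) over all 12 arrays with an intensity-dependent variance prior, and p-values were adjusted (Benjamini-Hochberg) over all 19494 genes; a gene was called under 0.05. The fit was tested on simulated data with known changes and independent noise, which does not test it for arrays that stand apart. For single genes, exact two-sided permutation tests were added. No depth applies to arrays, whose number limits the precision. Named were all members, the 2 genes with the smallest p per remodeller list and comparison, and the 5 genes most like Smarce1; Ms4a4c was named after its values were seen. The members and lists were chosen with earlier results of these data known. Alternatives covered filters, variance priors, normalization, array weights, probe sets, the replicate block and left-out arrays; the fit without HSC arrays 66 and 70 was chosen after seeing the data. Figures used Python 3.11.15 and matplotlib 3.10.9.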

Additional observations from a re-analysis of the deposited data

How the results depend on the processing

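No member was called in the genotype comparisons, the interaction or either single-genotype population comparison under any alternative run. For HSC minus MPP averaged over genotypes the count of members called was 1 (Smarca2) with genes under a mean of 6 left out and after quantile normalization, and 0 to 1 with single arrays left out (1 without wild-type MPP array 75). Differences near 0 changed sign. Quantile normalization turned Smarca4 in MPP to -0.0396 and Smarcc2 between populations to 0.0642, and median centring turned Smarcd2 in MPP to 0.015. With single arrays left out, the MPP genotype difference ran from -0.11 to 0.20 for Smarce1, -0.35 to 0.00037 for Arid1b, -0.15 to 0.0475 for Smarca2, -0.11 to 0.15 for Smarca4, -0.15 to 0.31 for Smarcb1, -0.22 to 0.24 for Smarcc2 and -0.43 to 0.29 for Smarcd2. The averaged population difference ran from -0.0494 to 0.14 for Smarce1, -0.16 to 0.0631 for Smarcc2, -0.0656 to 0.65 for Smarcd1 and -0.35 to 0.12 for Smarcd2. In HSC, where no test is given, the genotype difference ran from -0.09 to 0.25 for Smarca4, -0.02 to 0.25 for Smarcc2, -0.26 to 1.17 for Smarcd1 and -0.22 to 0.72 for Smarcd2, and kept its sign for the other 5 members. The cause was not tested.

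Arrays that share a title number did not deviate together across genes (correlations of -0.01 to 0.06 over 6 pairs), so the number was not taken as a pairing. For Smarce1 the deviations on HSC arrays 64, 70, 76, 66, 67 and 75 were 0.22, 0.09, -0.31, -0.27, 0.44 and -0.17. On the MPP arrays they were 0.11, 0.06, -0.17, -0.38, 0.24 and 0.14, with the same sign except for number 75. The correlations across genes thus do not describe every member. With the number as a replicate block, 0 members were called in any comparison; Smarca2 kept a difference of 0.44 between populations with a limma adjusted p of 0.181, and Smarce1 had -1.18 in HSC and 0.08 in MPP. Over all genes, the averaged population comparison called 119 genes and 52 with the block, the wild-type one 32 and 5, and the NFAT5-deficient one 41 and 3. The MPP genotype count ran from 0 to 6 and that in HSC from 0 to 3.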
